A study of Mus musculus with 49 samples.

Results

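The cytochrome P450 genes are described here in inflamed and uninflamed skin and colon of DITRA-like mice. Their members were taken by name: every gene whose mouse symbol is Cyp followed by a number, letters and a number. Of 24475 gene identifiers in the 2 deposited tables, 24375 had a symbol and 94 symbols had this form. Of these 94 genes, 54 passed the filter on low counts in at least 1 tissue: 39 in skin and 39 in colon, of which 24 passed in both, 15 in skin alone and 15 in colon alone. The other 40 were below the filter in both tissues, though none was at 0 in every library.

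DITRA is deficiency of the interleukin-36 receptor antagonist, a disorder in which the inhibitor of interleukin-36 signalling is lost. All mice were labelled as a DITRA model of the strain 75% C57BL/6NTac 25% 129S6/SvEvTac, so every group shares that background, the water controls included. The alleles, age, sex, doses and days of treatment are not given in the sources used here. Skin came from 3 water controls given phosphate-buffered saline (water PBS), and from mice treated with imiquimod (IMQ, which inflames skin by activating a Toll-like receptor) and given PBS (6 libraries), an antibody against human IL-36R, the receptor of interleukin-36 (anti-IL-36R, 7 libraries), or an antibody against mouse IL-12p40, a subunit common to interleukin-12 and interleukin-23 (anti-IL-12p40, 7 libraries). Colon came from 5 water PBS controls and from mice treated with dextran sulfate sodium (DSS, which injures the colon lining) and given PBS (6 libraries), anti-IL-36R (8 libraries) or anti-IL-12p40 (7 libraries). The labels do not say that each library is a separate animal, so p-values measure only the spread between these samples.

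Cytochrome P450 enzymes are haem proteins that insert an oxygen atom into a substrate, with electrons passed on by P450 oxidoreductase in the endoplasmic reticulum or by ferredoxin in mitochondria. Members of families 1 to 3 mostly oxidise foreign compounds and fatty acids, and family 1 is switched on by the aryl hydrocarbon receptor, a sensor of dioxins, plant indoles and tryptophan products. Family 4 hydroxylates the end of fatty acid and eicosanoid chains, and the remaining families make or clear sterols, bile acids, steroid hormones, vitamin D and retinoic acid. The liver holds most P450 protein, while skin and gut lining keep sets of their own for barrier lipids and for compounds that arrive from outside.

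Libraries held 14.72 to 19.68 M counts in skin and 15.08 to 18.66 M in colon. The tissue labels were checked by markers: 10 keratinocyte genes summed to 30300 to 69900 counts per 1000000 of the library (CPM) in skin, and 10 intestinal epithelium genes to 3190 to 14100 CPM in colon. In colon 5 libraries stood apart. Water PBS replicate 4 had a summed goblet cell marker level of 65800 CPM, DSS PBS replicate 6 had 1500 CPM of the squamous keratin Krt5, DSS anti-IL-12p40 replicate 5 had 884 CPM of the liver gene Alb, DSS anti-IL-36R replicate 3 had 55.8 CPM of Alb, and DSS anti-IL-36R replicate 8 had 83.1 CPM of the pancreas gene Prss2. Colon calls lost without these 5 libraries are given with and without them.

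The 300 bases around the start site of 7 genes are shown first because they belong to results below, a choice made after their values were seen: 6 are the genes that fell with IMQ and rose with each antibody in comparisons that share the IMQ PBS libraries, and Cyp1b1 is the family 1 gene that rose in colon. Each runs from 250 bases before the start site to 50 after it, 5′ to 3′ on the gene's own strand, from RefSeq on GRCm38.p6. Capitals mark matches on either strand to GCGTG, the core of the element that the aryl hydrocarbon receptor binds, to TGANTCA, the AP-1 element, or to AGGTCA, a nuclear receptor half-site. The windows are chr9:57697363-57697662 on the plus strand for Cyp1a1, chr17:79715012-79715311 on the minus strand for Cyp1b1, chr7:26686381-26686680 on the minus strand for Cyp2b23, chr4:96507348-96507647 on the minus strand for Cyp2j8, chr4:96141103-96141402 on the minus strand for Cyp2j12, chr5:145345019-145345318 on the plus strand for Cyp3a57 and chr17:32621069-32621368 on the plus strand for Cyp4f37.
Cyp1a1: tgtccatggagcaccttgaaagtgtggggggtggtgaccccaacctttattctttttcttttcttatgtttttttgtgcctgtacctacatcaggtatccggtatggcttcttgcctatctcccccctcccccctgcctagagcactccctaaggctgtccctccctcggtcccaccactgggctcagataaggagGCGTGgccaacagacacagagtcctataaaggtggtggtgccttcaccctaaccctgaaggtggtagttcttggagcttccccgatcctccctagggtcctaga
Cyp1b1: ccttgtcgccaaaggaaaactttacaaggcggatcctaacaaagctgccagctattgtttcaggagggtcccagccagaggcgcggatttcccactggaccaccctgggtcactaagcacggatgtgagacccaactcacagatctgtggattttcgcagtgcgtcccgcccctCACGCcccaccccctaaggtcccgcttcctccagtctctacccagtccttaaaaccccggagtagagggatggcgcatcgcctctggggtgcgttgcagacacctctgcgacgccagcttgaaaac
Cyp2b23: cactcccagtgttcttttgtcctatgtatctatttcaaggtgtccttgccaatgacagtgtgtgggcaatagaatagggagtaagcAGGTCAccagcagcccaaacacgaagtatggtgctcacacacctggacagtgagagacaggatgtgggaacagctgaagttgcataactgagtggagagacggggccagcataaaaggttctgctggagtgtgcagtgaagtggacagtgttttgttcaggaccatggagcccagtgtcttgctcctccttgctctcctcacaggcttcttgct
Cyp2j8: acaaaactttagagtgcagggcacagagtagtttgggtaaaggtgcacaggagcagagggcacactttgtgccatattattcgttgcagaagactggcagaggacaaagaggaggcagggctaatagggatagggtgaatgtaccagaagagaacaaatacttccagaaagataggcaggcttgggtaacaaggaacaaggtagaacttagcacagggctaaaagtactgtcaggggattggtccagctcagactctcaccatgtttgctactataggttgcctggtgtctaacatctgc
Cyp2j12: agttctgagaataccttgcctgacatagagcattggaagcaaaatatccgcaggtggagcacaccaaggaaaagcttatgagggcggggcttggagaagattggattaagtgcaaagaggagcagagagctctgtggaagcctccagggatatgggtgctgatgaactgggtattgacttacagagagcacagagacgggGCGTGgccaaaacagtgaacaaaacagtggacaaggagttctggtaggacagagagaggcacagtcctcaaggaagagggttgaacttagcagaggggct
Cyp3a57: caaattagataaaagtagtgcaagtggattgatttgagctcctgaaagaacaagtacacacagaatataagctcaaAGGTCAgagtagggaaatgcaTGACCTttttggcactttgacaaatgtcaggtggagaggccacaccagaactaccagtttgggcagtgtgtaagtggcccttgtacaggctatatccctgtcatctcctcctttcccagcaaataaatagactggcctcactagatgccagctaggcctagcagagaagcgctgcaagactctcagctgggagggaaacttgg
Cyp4f37: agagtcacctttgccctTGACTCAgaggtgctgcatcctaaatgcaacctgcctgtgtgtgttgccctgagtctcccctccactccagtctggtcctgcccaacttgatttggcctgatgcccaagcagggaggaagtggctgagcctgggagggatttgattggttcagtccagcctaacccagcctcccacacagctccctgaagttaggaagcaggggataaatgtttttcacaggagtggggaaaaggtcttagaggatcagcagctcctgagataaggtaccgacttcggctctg

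GCGTG began 54 bases before the start site of Cyp1a1 and 50 bases before that of Cyp2j12, both on the gene's strand, and lay 76 bases before that of Cyp1b1 on the other strand. AGGTCA lay in the windows of Cyp2b23 and, once on each strand, of Cyp3a57, and TGANTCA in that of Cyp4f37. The window of Cyp2j8 held none of the 3 motifs. These are short words: GCGTG was in 32.5% of 27025 promoter windows and in 34.9% of the 43 windows matched to P450 genes tested, AGGTCA in 16% and 11.6%, and TGANTCA in 7.93% and 9.3%.

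In water PBS skin the P450 gene with the highest level per kilobase of exon was Cyp2g1, known from olfactory mucosa, at 124 CPM per kilobase. That value rested on water replicate 3, without which Cyp2g1 was at 51.9 and Cyp4f39 at 47.5 CPM per kilobase. Over all 3 libraries Cyp4f39, which hydroxylates the very long fatty acids of barrier ceramides, followed at 46.9, and the keratinocyte epoxygenase Cyp2b19 at 42.5. Cyp2f2 stood at 35.8, the retinoic acid hydroxylase Cyp26b1 at 24.1, Cyp2b10 at 18.1 and the steroidogenic Cyp17a1 at 17.5 CPM per kilobase. Without water replicate 3 these were at 18.5, 17.2, 13.5 and 16.5 CPM per kilobase. Water PBS colon was led by Cyp2c55, a member of the Cyp2c subfamily abundant in mouse colon, at 579 CPM per kilobase, or 308 without water replicate 4, one of the libraries that stood apart. Cyp2d34 at 119, Cyp2c68 at 44.5, Cyp3a13 at 38, Cyp2d12 at 32.6 and Cyp2s1 at 29.3 CPM per kilobase came next. The leading genes of the tissues were therefore different ones. Many of these genes have near-identical neighbours, and deposited counts that are not whole numbers mark reads shared among relatives. Of the 39 tested in skin, 10 were not whole in every library (Cyp2b10, Cyp2b19, Cyp2e1, Cyp2j6, Cyp2j9, Cyp2j12, Cyp4f13, Cyp4f16, Cyp4f17 and Cyp4f18) and another 10 in some libraries. Among the latter, Cyp2b23 and Cyp4f37 were not whole in every library where they had counts (20 and 22 libraries). Cyp2j8 was not whole in 20 of 23 libraries and Cyp3a57 in 16 of 23. Of the 39 tested in colon, 18 were not whole in every library, most of the Cyp2d, Cyp4f and Cyp2j genes among them. The values of these genes are less certain, whereas the counts of Cyp7b1, Cyp1b1, Cyp2s1 and Cyp8b1 were whole throughout.

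IMQ changed 22 of the 39 P450 genes of skin, mostly downward. Against water PBS, 16 fell, where 17.5% of all genes tested fell, and 6 rose, where 15.5% of all genes rose. The median log2 fold change over the 39 was -0.39, against -0.03 over all genes tested. Of the 22 genes past the threshold (adjusted p under 0.05, edgeR quasi-likelihood test), 18 had IMQ PBS and water PBS levels that did not overlap and the rest of the 39 overlapped, where 26.7% of all genes tested did not overlap. The plot of changes by role shows the falls spread over families 1 to 4 and the sterol, steroid and vitamin D enzymes. In bulk tissue, fewer cells of a type and less RNA per cell cannot be told apart.

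**Figure D1:**
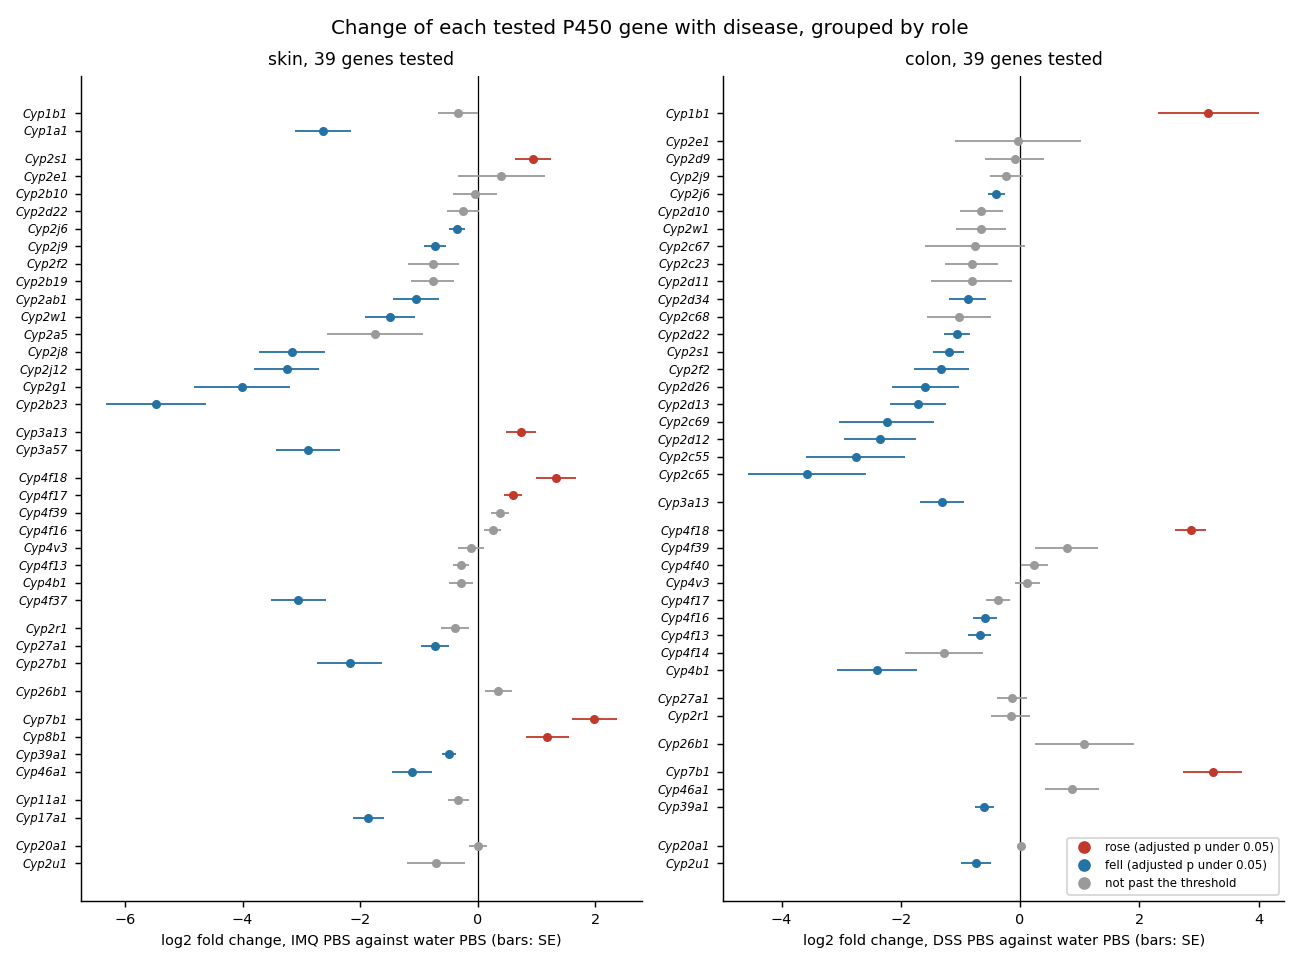
Change of each P450 gene with disease in PBS mice, skin IMQ against water on the left and colon DSS against water on the right. The horizontal axis is the log2 fold change, bars are ± SE, genes are ordered by role, red marks genes that rose, blue genes that fell and grey genes not past the threshold; 6 rose and 16 fell in skin, 3 rose and 17 fell in colon.

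Of the aryl hydrocarbon receptor targets of family 1, Cyp1a1 fell. Cyp1a1 was at 10.6, 15 and 35.9 CPM in the 3 water PBS libraries and at 3.26, 2.24, 2.55, 6.37, 3.92 and 1.46 CPM in the 6 IMQ PBS libraries, a mean of 3.3 ± 1.73 CPM (SD, n = 6). All IMQ PBS values lay below all water values (log2 fold change -2.64 ± 0.476, adjusted p = 0.000593, errors of fold changes being SE throughout). Cyp1b1, the family member of stromal cells, ran from 22.6 to 43.5 CPM in water PBS and 9.97 to 36.4 CPM in IMQ PBS (log2 fold change -0.34 ± 0.344, adjusted p = 0.457). Its groups overlapped and it did not pass. The receptor's other genes were split: of 10 tested, Tiparp (1.19 ± 0.251), Nqo1 (1.18 ± 0.265) and Hsp90aa1 (0.35 ± 0.129) rose, and the receptor gene Ahr itself (-0.66 ± 0.167), its repressor Ahrr (-0.69 ± 0.216) and Aldh3a1 (-1.26 ± 0.325) fell, all on the log2 scale.

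Of family 2, Cyp2r1 was counted with the vitamin D enzymes and Cyp2u1 apart. Of the 15 other family 2 genes tested, 8 fell and 1 rose, with a median log2 fold change of -0.77. Cyp2g1 was at 28.1, 169 and 511 CPM in water PBS and at 6.1 to 26.7 CPM (median 14.1) in IMQ PBS, so the groups did not overlap although the water libraries differed widely (log2 fold change -4.01 ± 0.823, adjusted p = 0.00137). Cyp2b23 had 0.436, 1.59 and 4.34 CPM in water PBS and 0.0678, 0, 0, 0.117, 0 and 0.0609 CPM in IMQ PBS (log2 fold change -5.47 ± 0.847, adjusted p = 0.000213). Only 4 counts in all lay behind the IMQ PBS values and 3 of those 6 libraries were at 0, so the size of this fold depends on the prior count of the fit.

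The Cyp2j genes, arachidonic acid epoxygenases that lie together on chromosome 4, fell in every one of the 4 tested. Cyp2j12 went from 4.14, 7.08 and 12 CPM in water PBS to 0.95, 0.424, 0.52, 1.87, 0.701 and 0.365 CPM in IMQ PBS (log2 fold change -3.25 ± 0.552, adjusted p = 0.000406). Cyp2j8 was at 2.72, 3.51 and 8.17 CPM and 0.407, 0.424, 0.208, 1.29, 0.49 and 0.365 CPM (log2 fold change -3.16 ± 0.557, adjusted p = 0.000516). For both genes every IMQ PBS library lay below every water library. Cyp2j9 and Cyp2j6 fell less, by log2 fold changes of -0.73 ± 0.19 and -0.35 ± 0.135, and the Cyp2j6 groups overlapped. The weakly expressed Cyp2w1 (log2 fold change -1.49 ± 0.429, adjusted p = 0.0121) and Cyp2ab1 (log2 fold change -1.05 ± 0.389, adjusted p = 0.0416) also fell. The epithelial Cyp2s1 was the family member that rose, from 13.9, 20.6 and 17.8 CPM to 21.7 to 46.3 CPM without overlap (log2 fold change 0.94 ± 0.31, adjusted p = 0.0243). Cyp2b19, from 78.2 to 144 CPM in water PBS to 42.7 to 118 CPM in IMQ PBS, did not pass (log2 fold change -0.77 ± 0.36, adjusted p = 0.101), nor did Cyp2e1, the ethanol-oxidising enzyme (log2 fold change 0.40 ± 0.735, adjusted p = 0.695).

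The family 3 genes moved in opposite directions. Cyp3a57 was at 4.79, 5.49 and 13.4 CPM in water PBS and 0.95, 0.908, 1.04, 1.87, 1.26 and 0.305 CPM in IMQ PBS (log2 fold change -2.89 ± 0.542, adjusted p = 0.000758), with no overlap. Cyp3a13, best known from intestine, rose from 9.92 to 18.1 CPM to 15.1 to 40.5 CPM with overlapping groups (log2 fold change 0.74 ± 0.253, adjusted p = 0.0299).

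Of 8 family 4 genes, Cyp4f37 fell while Cyp4f18 and Cyp4f17 rose. Cyp4f37 was at 2.51, 3.37 and 5.3 CPM in water PBS and 0.882, 0.727, 0.26, 0, 0.28 and 0.548 CPM in IMQ PBS (log2 fold change -3.05 ± 0.461, adjusted p = 0.000186). Cyp4f18, the leukotriene B4 hydroxylase of myeloid cells, was at 2.72, 2.85 and 2.03 CPM and 3.6, 5.27, 5.67, 7.19, 10.7 and 5.79 CPM (log2 fold change 1.33 ± 0.341, adjusted p = 0.006). Cyp4f17 went from 9.32, 7.54 and 7.1 CPM to 10.9 to 13.6 CPM (log2 fold change 0.60 ± 0.159, adjusted p = 0.00706). In none of these genes did the groups overlap. The barrier gene Cyp4f39 was at 98.3, 150 and 119 CPM and 138 to 234 CPM (median 146) and did not pass (log2 fold change 0.38 ± 0.158, adjusted p = 0.0705), nor did Cyp4b1 (log2 fold change -0.29 ± 0.202, adjusted p = 0.265).

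All 4 sterol and bile acid enzymes of skin changed. Cyp7b1, which clears oxysterols, was at 9.42, 3.9 and 6.99 CPM in water PBS and 22.5, 25.4, 24, 35, 28.6 and 25.7 CPM in IMQ PBS, the largest rise among the 39 (log2 fold change 1.98 ± 0.381, adjusted p = 0.000928). Cyp8b1, a bile acid enzyme, rose from 0.708, 0.794 and 0.451 CPM to 1.05 to 1.81 CPM (log2 fold change 1.18 ± 0.368, adjusted p = 0.0186). Cyp46a1, the cholesterol hydroxylase of neurons, and Cyp39a1, an oxysterol hydroxylase, fell by 1.12 and 0.49 on the log2 scale. Ch25h, which makes the oxysterol that Cyp7b1 degrades, rose as well (log2 fold change 1.80 ± 0.469, adjusted p = 0.0065). In all, 3 of the 9 other sterol and bile acid genes tested rose and 0 fell.

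The hormone enzymes fell or did not pass. Cyp17a1, a hydroxylase and lyase of steroid synthesis, was at 36.4, 43.5 and 46.9 CPM in water PBS and 13.9, 7.57, 9.77, 18.3, 9.6 and 10.5 CPM in IMQ PBS (log2 fold change -1.86 ± 0.269, adjusted p = 0.000142). Cyp11a1, which starts steroid synthesis, did not pass (log2 fold change -0.33 ± 0.183, adjusted p = 0.171). Cyp27b1, which makes active vitamin D, went from 3.7, 3.04 and 0.901 CPM to 0.122 to 1.05 CPM with overlapping groups (log2 fold change -2.18 ± 0.546, adjusted p = 0.00511), and Cyp27a1, a mitochondrial sterol hydroxylase, fell by 0.73 on the log2 scale. Cyp2r1, the first hydroxylase of vitamin D, did not pass (log2 fold change -0.39 ± 0.24, adjusted p = 0.216), and the vitamin D receptor gene Vdr fell (log2 fold change -0.73 ± 0.124, adjusted p = 0.00041). Cyp26b1 was at 113, 71.7 and 203 CPM in water PBS and 109 to 201 CPM (median 171) in IMQ PBS (log2 fold change 0.35 ± 0.234, adjusted p = 0.252). It passed without water replicate 3 (0.84 ± 0.224, adjusted p = 0.0143).

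**Figure D2:**
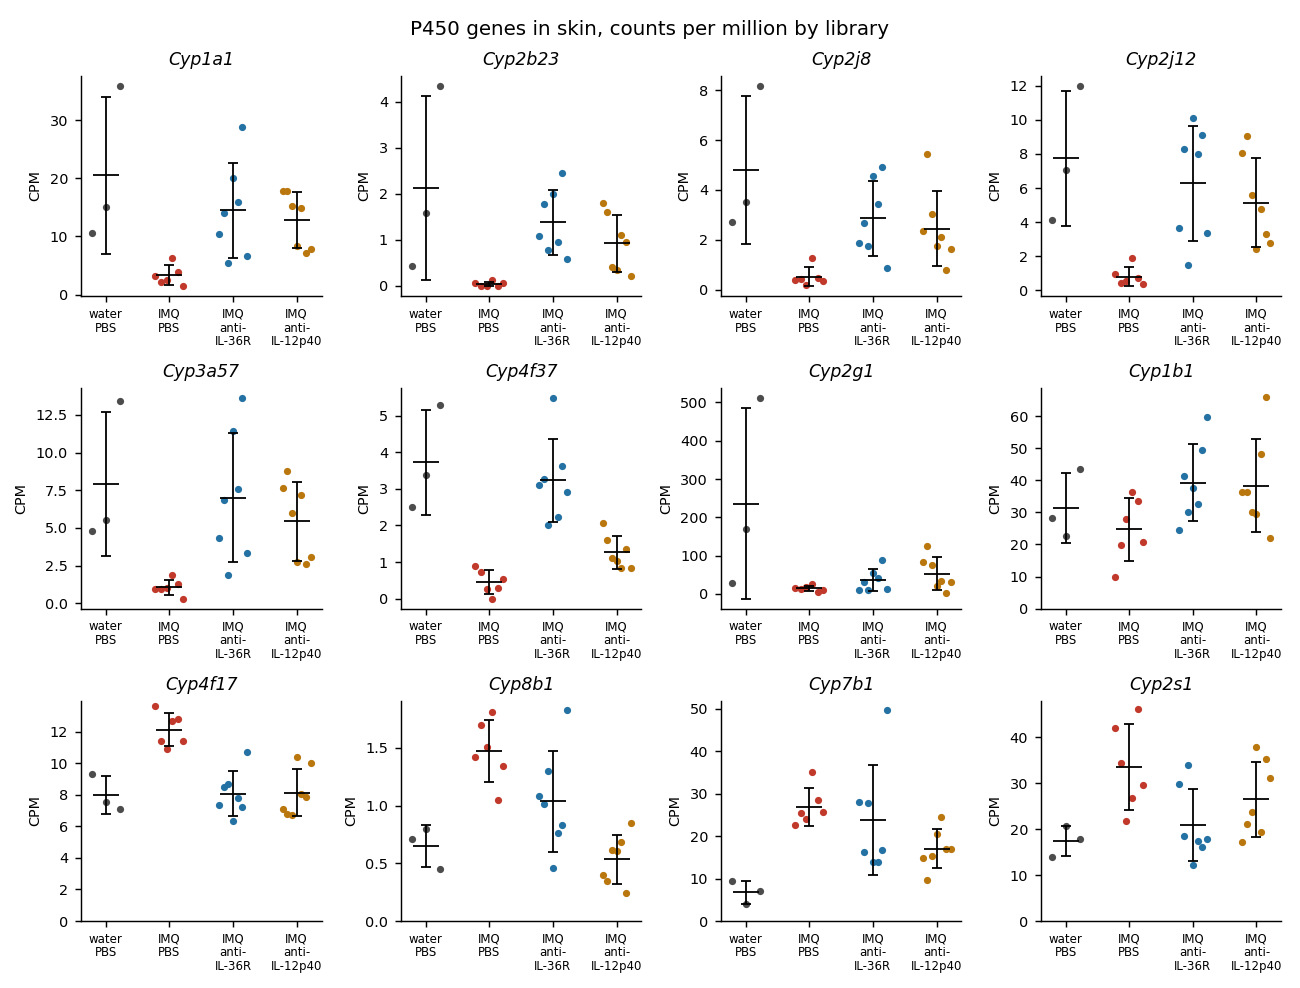
Level of 12 P450 genes in each skin library, in CPM on a linear axis, for the 4 skin groups. Points are libraries and bars the mean ± SD; Cyp1a1, Cyp2b23, Cyp2j8, Cyp2j12, Cyp3a57 and Cyp4f37 are low in IMQ PBS and higher in both antibody groups, while Cyp7b1 is high in IMQ PBS.

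Markers of other cell types moved with these genes. All 10 sebaceous gland markers fell with IMQ, and their summed level was 667 to 1390 CPM in water PBS and 226 to 574 CPM in IMQ PBS, with none of the 10 at 0. Of 9 hair follicle markers tested 5 fell, and of 10 fibroblast markers 5 fell, with sums of 14000 to 23700 CPM and 4410 to 10800 CPM. Of 9 keratinocyte markers tested 3 fell and 2 rose, and of 10 adipocyte markers 3 fell, where 17.5% of all genes fell and 15.5% rose. Of 9 neutrophil markers tested 7 rose, from sums of 407 to 2690 CPM to 8170 to 16700 CPM, and 6 of 10 macrophage markers rose. Their part in the P450 changes was not tested. Water PBS replicate 3 decided part of the count: without it 10 P450 genes fell and 3 rose, and Cyp2s1, Cyp3a13, Cyp4f17, Cyp8b1, Cyp27a1, Cyp2ab1, Cyp2w1 and Cyp46a1 were among those that no longer passed. The share of all genes in that fit is not given here. Some of these calls were lost in other settings too. Of the 16 alternatives run, 10 lost the call of Cyp2ab1, 6 that of Cyp3a13 and 4 each those of Cyp27a1 and Cyp2s1.

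The question of the antibody arms is how blocking either pathway changes IMQ skin. Both antibody comparisons use the same 6 IMQ PBS libraries, so their values are given side by side and share that error. With anti-IL-36R 6 of 39 P450 genes rose, where 3.29% of all genes rose, and 1 fell, where 0.919% fell. With anti-IL-12p40 8 rose, where 5.32% of all genes rose, and 2 fell, where 3.49% fell. Levels did not overlap with IMQ PBS for 4 of the 7 genes past the threshold with anti-IL-36R and for 7 of the 10 with anti-IL-12p40 and overlapped for the rest of the 39, where 1.34% and 3.77% of all genes did not overlap.

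Cyp1a1 was at 5.51 to 28.9 CPM (median 14) with anti-IL-36R and 7.17 to 17.9 CPM (median 14.9) with anti-IL-12p40. These were rises over IMQ PBS of 2.13 ± 0.414, adjusted p = 0.00581 on the log2 scale with anti-IL-36R and 1.96 ± 0.412, adjusted p = 0.00624 with anti-IL-12p40. The anti-IL-36R values overlapped those of IMQ PBS and the anti-IL-12p40 values did not. Its receptor gene Ahr rose too, by 0.50 ± 0.135, adjusted p = 0.0399 and by 0.56 ± 0.135, adjusted p = 0.0139. Cyp1b1 did not pass with either antibody (0.67 ± 0.275, adjusted p = 0.166 and 0.63 ± 0.275, adjusted p = 0.155).

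Cyp2b23, at or below 0.117 CPM in IMQ PBS, was at 0.574 to 2.45 CPM (median 1.08) with anti-IL-36R and 0.212 to 1.8 CPM (median 0.956) with anti-IL-12p40 (4.84 ± 0.792, adjusted p = 0.00265 and 4.30 ± 0.814, adjusted p = 0.0037). Cyp2j12 was at 1.49 to 10.1 CPM (median 8.02) and 2.44 to 9.05 CPM (median 4.79) (2.95 ± 0.489, adjusted p = 0.00282 and 2.67 ± 0.488, adjusted p = 0.00301). Cyp2j8 was at 0.887 to 4.9 CPM (median 2.67) and 0.777 to 5.45 CPM (median 2.11) (2.42 ± 0.494, adjusted p = 0.00797 and 2.20 ± 0.494, adjusted p = 0.00867). Cyp2b23 cleared the IMQ PBS range with both antibodies, Cyp2j12 with anti-IL-12p40, and Cyp2j8 overlapped it with both. The other Cyp2j genes, Cyp2j6 and Cyp2j9, did not pass with either antibody. Cyp3a57 was at 1.88 to 13.6 CPM (median 6.82) and 2.63 to 8.8 CPM (median 5.98) (2.72 ± 0.476, adjusted p = 0.00368 and 2.36 ± 0.475, adjusted p = 0.0051), above IMQ PBS in every library of both groups.

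Cyp4f37 was at 2.01 to 5.48 CPM (median 3.12) with anti-IL-36R, above every IMQ PBS library, and at 0.842 to 2.06 CPM (median 1.12) with anti-IL-12p40, which overlapped (2.85 ± 0.407, adjusted p = 0.00181 and 1.51 ± 0.418, adjusted p = 0.0279). Cyp4f17, which had risen with IMQ, was at 6.33 to 10.7 CPM (median 7.77) and 6.75 to 10.4 CPM (median 7.89) and fell with both without overlap (-0.58 ± 0.122, adjusted p = 0.00863 and -0.58 ± 0.122, adjusted p = 0.00623). With anti-IL-12p40 Cyp8b1 fell to 0.239 to 0.848 CPM (median 0.61) (log2 fold change -1.47 ± 0.282, adjusted p = 0.004), Cyp2w1 rose to 1.05 to 1.65 CPM (median 1.15) (log2 fold change 1.77 ± 0.354, adjusted p = 0.00502) and Cyp17a1 rose to 12.2 to 33.1 CPM (median 18.4) (log2 fold change 0.79 ± 0.226, adjusted p = 0.0322). With anti-IL-36R the corresponding values were -0.50 ± 0.266, adjusted p = 0.281 for Cyp8b1, 0.55 ± 0.376, adjusted p = 0.417 for Cyp2w1 and 0.24 ± 0.226, adjusted p = 0.567 for Cyp17a1. The anti-IL-12p40 call of Cyp17a1 was lost in 8 of the 20 alternatives run and that of Cyp4f37 in 6 of 20, mostly with single libraries left out.

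These differences between the antibodies were tested directly. Of the 39 genes 0 passed between anti-IL-36R and anti-IL-12p40 by edgeR, where 0.0456% of all genes did; 6 had an unadjusted p under 0.05, and the DESeq2 Wald test called 1. The smallest adjusted p was 0.388, for Cyp4f37 (log2 fold change 1.34 ± 0.339). Cyp2w1, at 0.179 to 0.966 CPM with anti-IL-36R and 1.05 to 1.65 CPM with anti-IL-12p40, was the 1 gene of the 39 whose antibody groups did not overlap, where 0.176% of all genes did not (log2 fold change -1.22 ± 0.318, adjusted p = 0.413). Missing the threshold does not show that the antibodies acted alike.

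Several genes changed by IMQ did not pass with either antibody. Cyp7b1 was at 13.9 to 49.6 CPM (median 16.7) with anti-IL-36R and 9.75 to 24.5 CPM (median 16.9) with anti-IL-12p40 (-0.18 ± 0.265, adjusted p = 0.743 and -0.66 ± 0.266, adjusted p = 0.12 against IMQ PBS). Cyp2g1 was at 8.81 to 88.8 CPM (median 30.9) and 3.17 to 126 CPM (median 33.2) (1.28 ± 0.687, adjusted p = 0.283 and 1.86 ± 0.695, adjusted p = 0.0951). Both genes varied widely within the antibody groups. Cyp4f18 (-0.44 ± 0.247, adjusted p = 0.314 and -0.40 ± 0.247, adjusted p = 0.319), Cyp2s1 (-0.68 ± 0.233, adjusted p = 0.0965 and -0.34 ± 0.232, adjusted p = 0.382), Cyp27b1 (-0.20 ± 0.514, adjusted p = 0.855 and 1.07 ± 0.477, adjusted p = 0.162) and Cyp27a1 (0.20 ± 0.195, adjusted p = 0.592 and 0.20 ± 0.195, adjusted p = 0.556) also missed the threshold. So did genes that had not passed with IMQ either, namely Cyp2b19, at 63.1 to 269 CPM (median 136) with anti-IL-36R and 62.6 to 183 CPM (median 127) with anti-IL-12p40 (adjusted p = 0.0553 and 0.0971), Cyp4f39 (-0.11 ± 0.122, adjusted p = 0.624 and -0.08 ± 0.122, adjusted p = 0.737) and Cyp26b1 (0.26 ± 0.182, adjusted p = 0.417 and 0.07 ± 0.182, adjusted p = 0.863).

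Against water PBS, 6 genes passed with anti-IL-36R, where 13.1% of all genes did, and 4 with anti-IL-12p40, where 4.8% did. Cyp7b1 was above water in both (1.80 ± 0.373, adjusted p = 0.00434 and 1.31 ± 0.366, adjusted p = 0.0407), and Cyp17a1 (-1.62 ± 0.259, adjusted p = 0.00077 and -1.07 ± 0.26, adjusted p = 0.0232) and Cyp39a1 (-0.47 ± 0.117, adjusted p = 0.0125 and -0.51 ± 0.117, adjusted p = 0.0181) were below it in both. Cyp2g1 (-2.73 ± 0.757), Cyp27b1 (-2.38 ± 0.527) and Cyp46a1 (-1.09 ± 0.328) were below water with anti-IL-36R, and Cyp4f37 (-1.54 ± 0.409) with anti-IL-12p40, all as log2 fold changes. With anti-IL-12p40 the count ran from 0 to 6 when single libraries were left out, being 0 without water replicate 1 and 1 without water replicate 2 or 3.

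Sebaceous gland markers moved with the antibody rises: all 10 rose with anti-IL-36R and 9 of 10 with anti-IL-12p40, and their sum was 550 to 1430 CPM and 523 to 1360 CPM, against 226 to 574 CPM in IMQ PBS. Of 9 hair follicle markers 1 rose with anti-IL-36R and 4 with anti-IL-12p40, where replicate 2 had a sum of 2580 CPM and the others 92.5 to 151 CPM. Of 9 keratinocyte markers 1 and 3 rose. Over all genes tested 3.29% rose with anti-IL-36R and 5.32% with anti-IL-12p40. The part of these cell types in the P450 rises was not tested. Neutrophil marker sums were 3230 to 12700 CPM and 1020 to 5300 CPM. Of 9 neutrophil markers 0 fell with anti-IL-36R and 3 with anti-IL-12p40, where 0.919% and 3.49% of all genes fell. The IMQ PBS libraries fall into 2 runs of sample numbers in the labels, replicates 1 to 3 beside the water controls and 4 to 6 beside the anti-IL-36R samples, and the anti-IL-12p40 samples form a run of their own. Against replicates 1 to 3 alone, 6 P450 genes passed with anti-IL-36R and 6 with anti-IL-12p40. Against replicates 4 to 6 alone 1 passed with each, Cyp4f37 with anti-IL-36R (3.54 ± 0.553, adjusted p = 0.0143) and Cyp2w1 with anti-IL-12p40 (1.95 ± 0.46, adjusted p = 0.0418). Cyp1a1 was then at 1.89 ± 0.562, adjusted p = 0.123 and 1.70 ± 0.558, adjusted p = 0.122, and Cyp2j12 at 2.66 ± 0.661, adjusted p = 0.0791 and 2.37 ± 0.657, adjusted p = 0.0703. Each run had fewer IMQ PBS libraries than the full fit. Shares of all genes in these fits are not given here, so the counts cannot be read as particular to P450 genes.

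DSS lowered many P450 genes of the colon and raised few. Against water PBS, 17 of 39 fell, where 14.7% of all genes fell, and 3 rose, where 17.6% of all genes rose. The median log2 fold change was -0.65 over the 39 and -0.03 over all genes. Of the 20 genes past the threshold 7 had levels that did not overlap between DSS PBS and water PBS and the rest of the 39 overlapped, where 13.1% of all genes did not overlap. Without the 5 libraries that stood apart, 11 fell and 4 rose, with Cyp4f40 then added to the rises and Cyp2c23 to the falls. In a fit of the compared groups alone, 5 fell and 3 rose. Shares of all genes in these settings are not given here, so neither count can be read as particular to P450 genes.

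The 3 that rose were Cyp7b1, Cyp4f18 and Cyp1b1. Cyp7b1 was at 1.48, 1.91, 1.44, 1.56 and 1.19 CPM in the 5 water PBS libraries and 4.46, 13.4, 6.07, 6.57, 25.6 and 29.4 CPM in the 6 DSS PBS libraries (log2 fold change 3.23 ± 0.501, adjusted p = 3.27e-05). Cyp4f18 was at 3.02, 4.17, 1.92, 2.83 and 3.24 CPM and 13.4, 18, 13.8, 20, 32.5 and 34.9 CPM (log2 fold change 2.86 ± 0.263, adjusted p = 4.78e-07). Cyp1b1 was at 0.0617, 0.0563, 0.374, 1.27 and 0.187 CPM and 1.02, 2.33, 0.601, 0.717, 4.56 and 11.4 CPM (log2 fold change 3.16 ± 0.846, adjusted p = 0.00619). Cyp7b1 and Cyp4f18 did not overlap with water, Cyp1b1 did, and DSS PBS replicates 5 and 6 were the highest for Cyp7b1 and Cyp1b1. All 3 passed in each of the 17 alternatives run, the one without the libraries that stood apart included (2.89 ± 0.548, adjusted p = 0.000694 for Cyp7b1, 2.66 ± 0.266, adjusted p = 4.77e-06 for Cyp4f18 and 3.36 ± 0.792, adjusted p = 0.00398 for Cyp1b1).

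Of 20 family 2 genes, with Cyp2r1 and Cyp2u1 again counted apart, 11 fell and 0 rose. Cyp2s1 was at 95.6, 90.8, 89.1, 96.5 and 91.5 CPM in water PBS and 49, 39.5, 63.4, 51.2, 22.1 and 17.4 CPM in DSS PBS (log2 fold change -1.20 ± 0.26, adjusted p = 0.00112), without overlap. Cyp2d22 was at 57.6, 49.3, 45.8, 40.2 and 40.2 CPM and 22.3, 27.2, 18.5, 21.2, 22.8 and 21.9 CPM (log2 fold change -1.06 ± 0.219, adjusted p = 0.000696), also without overlap. These held in all 17 alternatives.

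The Cyp2d genes form a cluster on chromosome 15 with 9 members, of which 8 were tested in colon and 5 fell. Cyp2d34, the most abundant of them, went from 248, 234, 254, 96.7 and 152 CPM to 147, 96, 146, 161, 55.5 and 37 CPM with overlap (log2 fold change -0.88 ± 0.307, adjusted p = 0.0308). Cyp2d12 was at 94.4, 64.3, 71.9, 3.89 and 35 CPM and 17.9, 8.36, 17.4, 15, 2.66 and 2.16 CPM (log2 fold change -2.35 ± 0.605, adjusted p = 0.00464). Its water libraries spread widely and overlapped those of DSS PBS. Cyp2d13 (-1.71 ± 0.467), annotated as a transcribed pseudogene but counted here, and Cyp2d26 (-1.59 ± 0.564) fell as well. Without the libraries that stood apart Cyp2d26 did not pass (-1.06 ± 0.52, adjusted p = 0.144). The Cyp2d26 call was lost in 8 of 17 alternatives, among them the one without water replicate 4 (-1.30 ± 0.587, adjusted p = 0.0926), and that of Cyp2d34 in 6 of 17. Of the other members, Cyp2d9 (log2 fold change -0.09 ± 0.497, adjusted p = 0.909), Cyp2d10 (log2 fold change -0.65 ± 0.366, adjusted p = 0.179) and Cyp2d11 (log2 fold change -0.81 ± 0.681, adjusted p = 0.387) did not pass. Counts of this cluster were not whole in nearly every colon library, so how reads were divided among its members is uncertain.

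The Cyp2c cluster on chromosome 19 has 14 members, of which 5 were tested in colon and 3 fell. Cyp2c55 was at 730, 741, 600, 3320 and 389 CPM in water PBS and 438, 261, 39.6, 240, 40.8 and 6.13 CPM in DSS PBS (log2 fold change -2.76 ± 0.824, adjusted p = 0.0129). Cyp2c65 was at 4.32, 2.98, 2.67, 168 and 2.12 CPM and 4.84, 5.25, 1.98, 3.77, 1.95 and 0.284 CPM (log2 fold change -3.57 ± 0.987, adjusted p = 0.00762). Cyp2c69 was at 6.79, 4.5, 5.02, 7 and 9.3 CPM and 3.57, 0.179, 0.421, 3.71, 0.237 and 0.17 CPM, with no overlap (log2 fold change -2.24 ± 0.804, adjusted p = 0.0349). Water PBS replicate 4, the library rich in goblet cell markers, was far above the other water libraries for Cyp2c55 and Cyp2c65. Without the libraries that stood apart, none of the 3 passed: Cyp2c55 was at -1.59 ± 0.767, adjusted p = 0.135, Cyp2c65 at 0.23 ± 0.627, adjusted p = 0.821 and Cyp2c69 at -1.98 ± 0.838, adjusted p = 0.0889.

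Cyp3a13, the only family 3 gene tested in colon, was at 99.1, 84.1, 125, 194 and 58.8 CPM in water PBS and 56.9, 52.5, 50.2, 81, 16.3 and 14.1 CPM in DSS PBS (log2 fold change -1.31 ± 0.363, adjusted p = 0.00774), and did not pass without the libraries that stood apart (-0.84 ± 0.339, adjusted p = 0.0752). Of 9 family 4 genes 3 fell. Cyp4b1 was at 4.63, 2.98, 3.69, 62.9 and 1.75 CPM and 1.14 to 6.64 CPM (log2 fold change -2.40 ± 0.672, adjusted p = 0.00841), again with water replicate 4 far above the others, and did not pass without the libraries that stood apart (-0.63 ± 0.362, adjusted p = 0.216). Cyp4f13 (-0.68 ± 0.187) and Cyp4f16 (-0.59 ± 0.198) fell by small amounts. Cyp2f2, known from lung club cells, fell (log2 fold change -1.32 ± 0.463, adjusted p = 0.0311), with water replicate 4 at 8.84 CPM, the lowest of its group, and the call was lost in 8 of 17 alternatives. Cyp39a1 (-0.60 ± 0.158), Cyp2u1 (-0.74 ± 0.254) and Cyp2j6 (-0.40 ± 0.141) fell by less than 1 on the log2 scale, and Cyp2j6 did not pass without the libraries that stood apart (-0.19 ± 0.13, adjusted p = 0.299). Cyp26b1 (log2 fold change 1.08 ± 0.835, adjusted p = 0.338), Cyp27a1 (log2 fold change -0.14 ± 0.248, adjusted p = 0.705), Cyp2r1 (log2 fold change -0.16 ± 0.32, adjusted p = 0.747), Cyp4f39 (log2 fold change 0.78 ± 0.532, adjusted p = 0.271) and Cyp2e1 (log2 fold change -0.04 ± 1.06, adjusted p = 0.981) did not pass.

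**Figure D3:**
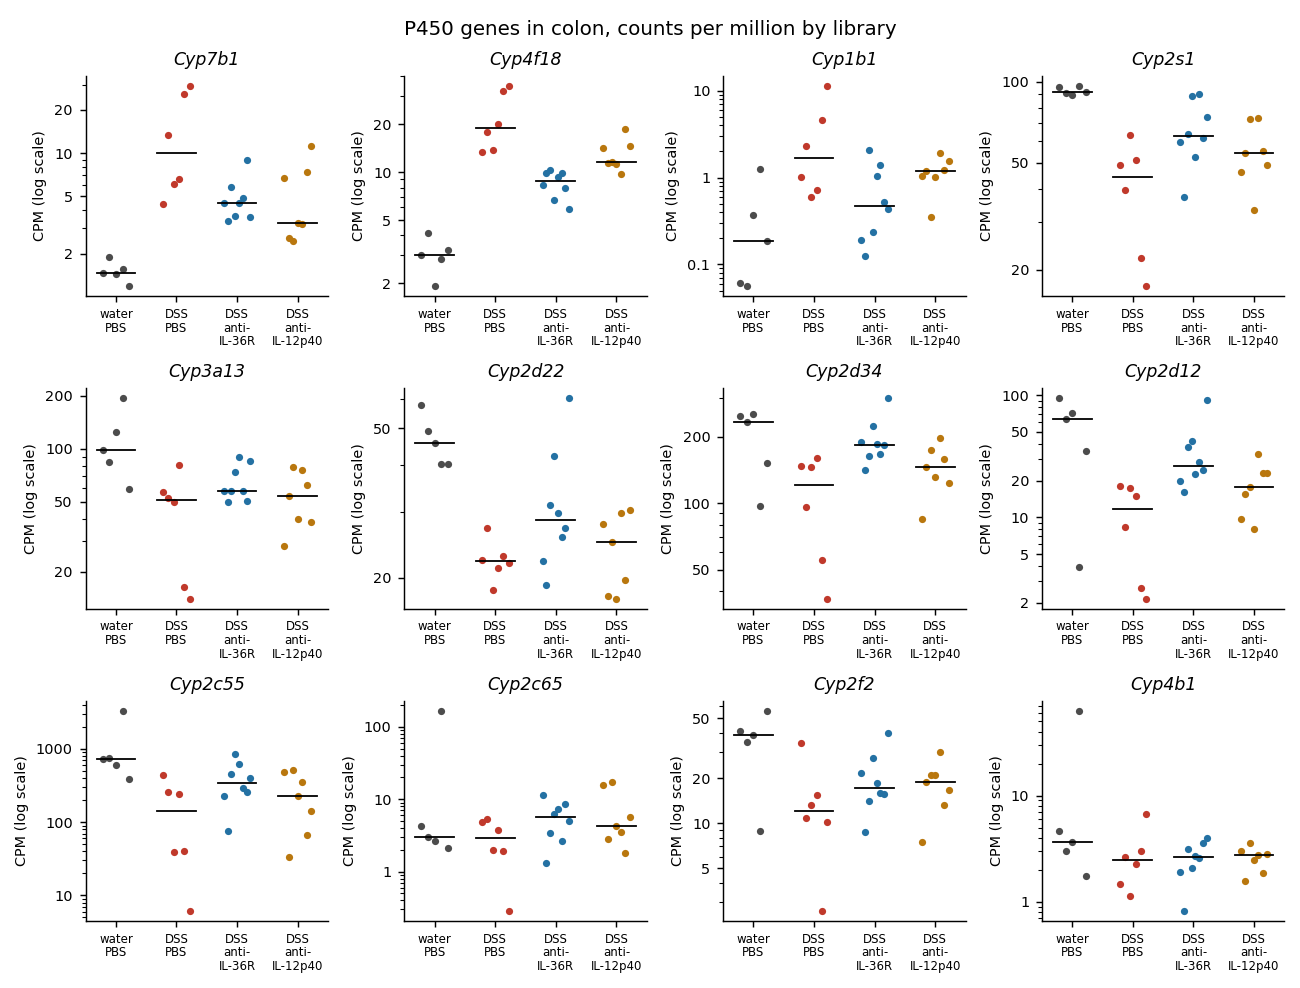
Level of 12 P450 genes in each colon library, in CPM on a log-scaled axis, for the 4 colon groups. Points are libraries and black lines the group median; Cyp7b1, Cyp4f18 and Cyp1b1 are higher in DSS PBS than in most water libraries, and 1 water library stands far above the rest for Cyp2c55, Cyp2c65 and Cyp4b1.

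Some marker lists moved with these colon changes too. The summed level of 10 colonocyte markers was 3500 to 6850 CPM in water PBS and 468 to 3040 CPM in DSS PBS, 4 of the 10 fell, and none was at 0. Of 10 neutrophil markers 9 rose (sums of 8.06 to 85.5 CPM and 234 to 3560 CPM), of 10 fibroblast markers 7 rose (1940 to 3200 CPM and 4270 to 14600 CPM) and of 10 macrophage markers 8 rose. Of 10 smooth muscle markers 4 fell. By contrast, of 10 general intestinal epithelium markers 1 fell, and of 10 goblet cell markers 1 rose and 1 fell. Over all genes tested 17.6% rose and 14.7% fell. The part of these cell types in the P450 changes was not tested.

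In the DSS colon 3 of 39 P450 genes fell with anti-IL-36R, a share near the 5.45% of all genes that fell. They were Cyp4f18, Cyp7b1 and Cyp1b1, and 0 rose, where 1.16% of all genes did. Cyp4f18 was at 5.86 to 10.3 CPM (median 8.76), below every DSS PBS library (log2 fold change -1.38 ± 0.209, adjusted p = 0.000321), and was the 1 gene of the 39 without overlap, where 0.903% of all genes did not overlap. Cyp7b1 was at 3.4 to 8.9 CPM (median 4.52) (log2 fold change -1.54 ± 0.39, adjusted p = 0.0174) and Cyp1b1 at 0.126 to 2.06 CPM (median 0.478) (log2 fold change -2.17 ± 0.663, adjusted p = 0.0489), both overlapping DSS PBS. The Cyp4f18 call held in all 20 alternatives, while those of Cyp7b1 and Cyp1b1 were lost in 5 and 12. Without the libraries that stood apart the values were -1.18 ± 0.216, adjusted p = 0.0069 for Cyp4f18, -1.17 ± 0.437, adjusted p = 0.208 for Cyp7b1 and -1.63 ± 0.594, adjusted p = 0.193 for Cyp1b1. Leaving out DSS PBS replicate 5 or 6 also left 1 call. This comparison shares the DSS PBS libraries with that against water. Beside the fall of Cyp4f18, 8 of 10 neutrophil markers fell, and their sum was 104 to 283 CPM with anti-IL-36R. Their part in it was not tested.

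With anti-IL-12p40, which is compared with the same DSS PBS libraries, 0 of 39 P450 genes passed by edgeR, where 0.0191% of all genes rose and 1.13% fell. By unadjusted p under 0.05 there were 6, and the DESeq2 Wald test called 2. Cyp4f18 was at 9.68 to 18.6 CPM (median 11.6) (log2 fold change -0.76 ± 0.215, adjusted p = 0.0901), Cyp7b1 at 2.44 to 11.3 CPM (median 3.27) (log2 fold change -1.43 ± 0.405, adjusted p = 0.0894) and Cyp1b1 at 0.349 to 1.94 CPM (median 1.19) (log2 fold change -1.53 ± 0.673, adjusted p = 0.349). Neutrophil markers fell in 7 of 10. Between the antibodies 0 genes passed by edgeR, where 0% of all genes did, 3 had an unadjusted p under 0.05, and the smallest unadjusted p was that of Cyp4f18 (log2 fold change -0.62 ± 0.202, adjusted p = 1).

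The genes that had fallen with DSS did not pass with either antibody. Cyp2c55 was at 76.8 to 860 CPM (median 347) with anti-IL-36R and 33.6 to 511 CPM (median 226) with anti-IL-12p40 (1.22 ± 0.73, adjusted p = 0.32 and 0.60 ± 0.734, adjusted p = 0.788). Cyp2s1 was at 37.3 to 90.2 CPM (median 62.7) and 33.3 to 73 CPM (median 54.4) (0.70 ± 0.236, adjusted p = 0.0705 and 0.44 ± 0.24, adjusted p = 0.477). Cyp2d34 was at 141 to 299 CPM (median 184) and 85.1 to 198 CPM (median 146) (0.86 ± 0.28, adjusted p = 0.0647 and 0.44 ± 0.284, adjusted p = 0.567). Cyp2d12 had the smallest adjusted p among the genes that missed the threshold with anti-IL-36R (1.74 ± 0.556, adjusted p = 0.0593, against 0.81 ± 0.555, adjusted p = 0.586 with anti-IL-12p40).

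Against water PBS, 4 genes passed with anti-IL-36R, where 9.92% of all genes did, and 7 with anti-IL-12p40, where 17.2% did. Cyp4f18 (1.48 ± 0.244, adjusted p = 0.000795 and 2.10 ± 0.252, adjusted p = 2.72e-05) and Cyp7b1 (1.69 ± 0.465, adjusted p = 0.0218 and 1.79 ± 0.473, adjusted p = 0.0101) were above water in both antibody groups, and no library of either group overlapped water for either gene. Cyp2d22 (-0.96 ± 0.21, adjusted p = 0.0024), Cyp2s1 (-0.76 ± 0.248, adjusted p = 0.0363), Cyp3a13 (-1.06 ± 0.347, adjusted p = 0.0368) and Cyp4f16 (-0.56 ± 0.19, adjusted p = 0.0422) were below water with anti-IL-12p40. The Cyp2d22 call held in all 15 alternatives, whereas that of Cyp2s1 was lost in 8, that of Cyp3a13 in 7 and that of Cyp4f16 in 8, most of them single libraries left out. Without the libraries that stood apart Cyp3a13 was at -0.87 ± 0.323, adjusted p = 0.0653. Cyp4b1 with both antibodies and Cyp2c65 with anti-IL-36R were below water as well, calls that were lost without water replicate 4. Without the libraries that stood apart Cyp4b1 was at -0.52 ± 0.346, adjusted p = 0.373 with anti-IL-36R and -0.35 ± 0.345, adjusted p = 0.515 with anti-IL-12p40, and Cyp2c65 at 1.05 ± 0.611, adjusted p = 0.298 with anti-IL-36R. In that setting 14 P450 genes passed against water with anti-IL-12p40. The share of all genes in that setting is not given here, so this count cannot be read as particular to P450 genes.

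Whether a gene changed differently in the 2 tissues was tested in 1 fit over both, for 57 P450 genes. The difference of the IMQ change in skin from the DSS change in colon passed for 10, or 5 in each direction, where 22.3% of all genes passed. Cyp2s1 rose in skin and fell in colon, a difference of 2.18 ± 0.427, adjusted p = 0.000246, and so did Cyp3a13 (2.09 ± 0.5, adjusted p = 0.00211). Cyp1b1 rose in colon and did not pass in skin (-3.49 ± 0.866, adjusted p = 0.003). Cyp4f18 rose in both, more in colon (-1.48 ± 0.405, adjusted p = 0.00672). Cyp4f17 (1.02 ± 0.259, adjusted p = 0.00376) and Cyp4f16 (0.89 ± 0.27, adjusted p = 0.0144) had the higher change in skin, while Cyp46a1 (-1.94 ± 0.587, adjusted p = 0.0139) and Cyp27b1 (-2.09 ± 0.697, adjusted p = 0.0254) had the lower change there. Cyp1a1 also differed (-2.76 ± 0.991, adjusted p = 0.0387), but Cyp1a1 and Cyp27b1 were below the colon filter, with colon levels of at most 0.219 and 0.637 CPM, and entered this fit through skin. Cyp4b1 differed too (2.14 ± 0.781, adjusted p = 0.0424). Without the libraries that stood apart, Cyp4b1, Cyp1a1 and Cyp27b1 no longer passed. Cyp7b1 rose in both tissues, and the difference between them missed the threshold (-1.18 ± 0.61, adjusted p = 0.158). Tissue, agent and deposited table go together, so they cannot be told apart in this comparison.

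**Figure D4:**
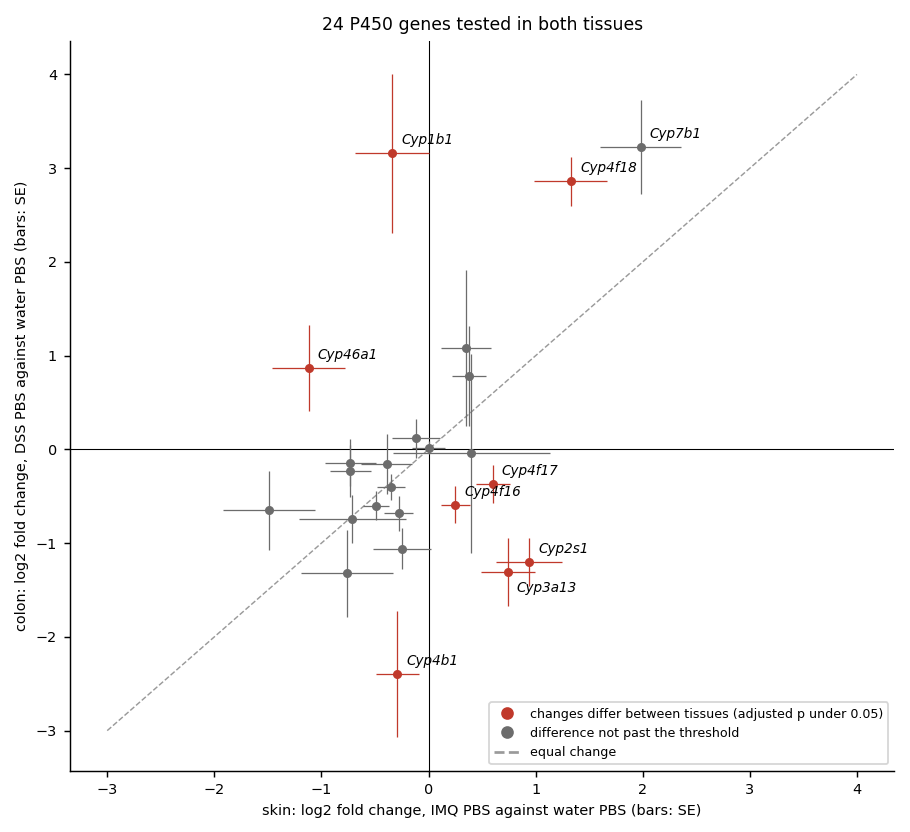
Disease change in skin (IMQ PBS against water PBS, horizontal, log2 fold change) against that in colon (DSS PBS against water PBS, vertical, log2 fold change) for the 24 P450 genes tested in both tissues. Bars are SE, red points are genes whose difference between tissues passed and the dashed line marks equal change; Cyp2s1 and Cyp3a13 lie at positive skin and negative colon values, and Cyp7b1 and Cyp4f18 are positive in both.

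Partner genes of the P450 system were counted from lists of the pathway, to be read against the 15.5% of all genes that rose and 17.5% that fell with IMQ in skin and the 17.6% that rose and 14.7% that fell with DSS in colon. In skin with IMQ, 6 of 21 electron donor and haem supply genes rose and 4 fell, the oxidoreductase gene Por rising by 0.39 ± 0.0917, adjusted p = 0.00332 and the haem synthesis gene Alas1 by 0.69 ± 0.174, adjusted p = 0.00528. In colon with DSS 1 of the 21 rose, the haem oxygenase Hmox1 (log2 fold change 2.81 ± 0.395, adjusted p = 1.02e-05), and 7 fell, the ferredoxin gene Fdx1 among them (log2 fold change -0.80 ± 0.142, adjusted p = 0.000149). Conjugation and hydrolysis enzymes fell in 20 of 31 genes in colon and rose in 0, with a median of -0.88, against 7 of 24 lower and 2 higher in skin. Ugt1a1 fell in both (-1.55 ± 0.331, adjusted p = 0.00178 in skin and -3.06 ± 0.786, adjusted p = 0.00452 in colon), and Ces2a (log2 fold change -2.04 ± 0.41, adjusted p = 0.000543) and Sult1a1 (log2 fold change -2.12 ± 0.398, adjusted p = 0.000273) fell in colon. In skin Ugt1a1 rose with both antibodies (1.25 ± 0.277, adjusted p = 0.0131 and 1.20 ± 0.277, adjusted p = 0.0105).

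Of the nuclear receptors that govern P450 genes, 5 of 12 fell and 1 rose in skin, and 6 of 16 fell and 0 rose in colon. The fatty acid receptor gene Ppara fell in both (-1.86 ± 0.413, adjusted p = 0.00232 and -1.85 ± 0.331, adjusted p = 0.000162), as did Vdr (-0.73 ± 0.124, adjusted p = 0.00041 and -1.17 ± 0.278, adjusted p = 0.0026), and the xenobiotic receptor gene Nr1i2 fell in colon (log2 fold change -0.75 ± 0.239, adjusted p = 0.0183). Retinoid handling genes rose in 5 of 18 and fell in 2 in skin, and rose in 8 of 16 and fell in 2 in colon, where the dehydrogenase gene Aldh1a1 fell (log2 fold change -2.48 ± 0.465, adjusted p = 0.00026). Of the steroid genes, the dehydrogenase gene Hsd3b6 fell with IMQ (log2 fold change -3.26 ± 0.584, adjusted p = 0.000563) and rose with anti-IL-36R (log2 fold change 2.31 ± 0.511, adjusted p = 0.013) and anti-IL-12p40 (log2 fold change 2.36 ± 0.511, adjusted p = 0.00693). In all 4 of 11 steroid genes rose and 3 fell in skin, and 2 of 12 rose and 2 fell in colon. Among the genes of eicosanoid synthesis 2 of 11 rose and 2 fell in skin, near the share of all genes, and 3 of 9 rose and 1 fell in colon. Ptgs2 rose in both (3.98 ± 1.02, adjusted p = 0.00589 and 4.37 ± 0.686, adjusted p = 3.68e-05) and Alox15 fell in skin (log2 fold change -2.54 ± 0.395, adjusted p = 0.000215). Sterol handling genes rose in 3 of 11 in colon and fell in 0, Ch25h among them (log2 fold change 1.53 ± 0.362, adjusted p = 0.00246).

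Several P450 genes of liver type stayed below the filter in colon yet were counted in single libraries. In DSS anti-IL-12p40 replicate 5, which held 884 CPM of Alb, Cyp2c29 was at 20.2 CPM, Cyp3a11 at 18.5 CPM, Cyp2a4 at 12.3 CPM and Cyp3a44 at 10.2 CPM. That library held 93.2% of all colon counts of Cyp2c29, 80.2% of those of Cyp3a11 and 99.1% of those of Cyp2a4. Cyp2e1, at 61.6 CPM, was highest there as well. DSS anti-IL-36R replicate 3, with 55.8 CPM of Alb, held the next highest values of Cyp2c29 (1.22 CPM) and Cyp3a11 (2.78 CPM). Cyp3a44 and Cyp3a25 differed: they were highest in water PBS replicate 4, at 10.5 and 7.14 CPM, where Alb was at 0.283 CPM. Cyp26a1, a retinoic acid hydroxylase, was highest in the first of these libraries too, at 2.17 CPM, and was below the filter in both tissues, as was the vitamin D hydroxylase Cyp24a1.

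**Figure D5:**
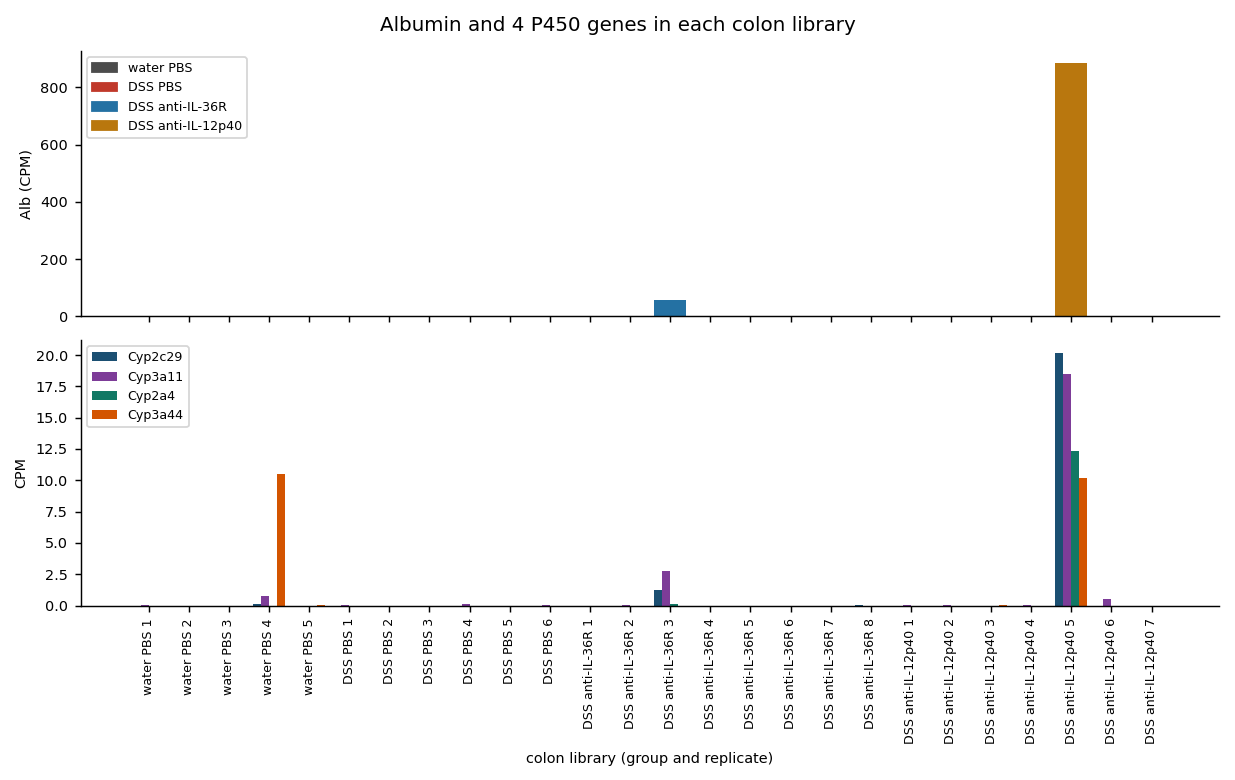
Level of the liver gene Alb and of 4 P450 genes of liver type in each of the 26 colon libraries, in CPM as bars from 0. DSS anti-IL-12p40 replicate 5 holds the tallest bars of Alb, Cyp2c29, Cyp3a11 and Cyp2a4, and Cyp3a44 is as high in water PBS replicate 4.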

How the data were processed

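Messenger RNA was enriched from total RNA and made into strand-specific libraries, per the labels' protocols. The authors estimated expected counts per gene with RSEM against mm10, per the submitters' processing notes, and deposited 1 table for each tissue; versions are not given in the sources used here. Expected counts share reads among similar genes, and 16.86% of skin values and 17.5% of colon values were not whole. They were rounded here.

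Each tissue was fitted once over its 4 groups in R 4.3.3 with the quasi-likelihood F test of edgeR 4.0.16, after filterByExpr and TMM scaling, over 15345 genes in skin and 15731 in colon, and both tissues together over 16818. TMM factors were 0.833 to 1.08 in skin and 0.91 to 1.09 in colon. A gene rose, fell or passed at a Benjamini-Hochberg adjusted p under 0.05 over all genes tested. CPM are counts per 1000000 on TMM-scaled library sizes, and each SE was derived as the size of the log2 fold change divided by √F. The common biological coefficient of variation was 0.201 in skin and 0.29 in colon. On simulated counts with 200 genes changed, the edgeR step recovered 74% of 2-fold and 98% of 4-fold changes for skin IMQ PBS against water PBS (15215 genes), and 84% and 100% for colon DSS PBS against water PBS (15624 genes). The simulated spread followed the same formula in both tissues, not the spread fitted to each, and no simulated library stood apart. These shares are therefore not the power in the real data, above all in colon.

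Members, gene lists and tests were chosen with earlier results of these data known. Named genes are up to 12 with the largest rise and up to 12 with the largest fall past the threshold against water, every gene past it in an antibody comparison, a fixed set, and up to 4 genes of each partner list with the smallest adjusted p; the fixed set is Cyp1a1, Cyp1b1, Cyp26a1, Cyp26b1, Cyp24a1, Cyp27b1, Cyp27a1, Cyp2r1, Cyp4f39, Cyp2b19, Cyp2e1, Cyp2s1, Cyp2g1, Cyp2c55, Cyp7b1, Cyp11a1, Cyp4b1 and Cyp2d34. Genes named beyond this rule (such as Cyp2d9 and the liver-type genes) were chosen after their values were seen.

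Alternatives were DESeq2 1.42.0 size factors, its Wald test, no low-count filter, limma 3.58.1 voom with sample weights, the compared groups alone, each library left out in turn, IMQ PBS replicates 1 to 3 or 4 to 6 alone, and, added after seeing the data, leaving out 5 colon libraries. Promoter windows came from RefSeq on GRCm38.p6, the same assembly as mm10. Gene lengths are merged exons of the GENCODE basic annotation of that assembly, matched by symbol. No 2 libraries were duplicates. Figures used Python 3.11.15 and matplotlib 3.10.9.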

Additional observations from a re-analysis of the deposited data

Results flagged for a closer look

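Each named P450 gene was checked in each group of 4 to 10 libraries, 168 checks in all, and in 6 of them 1 library lay far from the others. Independent checks would give about 1 in 20 by chance, but these share libraries, so that rate is no test of this count. Gaps were measured on log2 CPM (prior count 2), as a share of the group's range on that scale, while levels are given in CPM. In skin IMQ PBS, Cyp4f39 was at 234 CPM in replicate 1 with the next library at 151 CPM, a gap of 0.822. In colon water PBS, replicate 4 was far above the others for Cyp2c65 (168 CPM against 4.32 CPM, gap 0.842) and Cyp4b1 (62.9 CPM against 4.63 CPM, gap 0.735), and far below them for Cyp2f2 (8.84 CPM against 34.6 CPM, gap 0.738). In DSS PBS, replicate 6 was lowest for Cyp2c65 (0.284 CPM against 1.95 CPM, gap 0.632). In DSS anti-IL-12p40, replicate 3 was lowest for Cyp1b1 (0.349 CPM against 1.03 CPM, gap 0.609).

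The disease change differed between skin and colon for 10 P450 genes by the edgeR test of the difference itself, given as skin minus colon on the log2 scale. It was 2.18 for Cyp2s1, 2.09 for Cyp3a13, 1.02 for Cyp4f17, 0.89 for Cyp4f16 and 2.14 for Cyp4b1. It was -3.49 for Cyp1b1, -1.48 for Cyp4f18, -1.94 for Cyp46a1, -2.09 for Cyp27b1 and -2.76 for Cyp1a1, both of which were below the filter in colon. Cyp4b1, Cyp27b1 and Cyp1a1 did not pass without the 5 colon libraries that stood apart.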

How the results depend on the processing

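No paired analysis was possible because the labels give the groups compared no shared replicate numbers. Counts of P450 genes past the threshold moved by over 1.5 times as follows, and the cause was not tested. Shares of all genes are not given here for these settings or with single libraries left out. The counts therefore cannot be read as particular to P450 genes. For anti-IL-36R against IMQ PBS in skin, 7 became 11 by limma-voom and 1 against IMQ PBS replicates 4 to 6. For anti-IL-12p40 in skin, 10 became 6 against IMQ PBS replicates 1 to 3 and 1 against replicates 4 to 6, with fewer samples in both. Between the antibodies in skin, 0 became 1 by the DESeq2 Wald test. For DSS PBS against water PBS, 20 became 8 with the compared groups alone. For anti-IL-36R against DSS PBS, 3 became 6 by the DESeq2 Wald test and 1 by limma-voom, with the compared groups alone or without the 5 colon libraries that stood apart. For anti-IL-12p40 against DSS PBS, 0 became 2 by the DESeq2 Wald test, and against water PBS, 7 became 14 without the libraries that stood apart.

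With single libraries left out, the counts ran from 13 to 23 for IMQ PBS against water PBS, 0 to 6 for anti-IL-12p40 against water PBS in skin, 1 to 6 for anti-IL-36R and 0 to 2 for anti-IL-12p40 against DSS PBS, and 2 to 4 for anti-IL-36R and 4 to 9 for anti-IL-12p40 against water PBS in colon. Cyp2c65 changed sign against water PBS: 0.23 for DSS PBS without the libraries that stood apart, and for anti-IL-36R 1.05 without those libraries and -2.94 to 0.93 with single libraries left out, the latter without water PBS replicate 4. No setting moved the median change of all genes by over 0.1. Depth limits the genes under about 1 CPM most, Cyp2b23 in IMQ PBS among them.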

Other observations

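Neighbouring P450 genes changed in different directions with IMQ in some clusters, unlike the Cyp2j genes of chromosome 4. In the chromosome 17 cluster of 8 Cyp4f genes, of which 5 were tested, Cyp4f37 fell and Cyp4f17 rose with IMQ. In the chromosome 7 cluster of 13 genes, 7 were tested, of which Cyp2g1 and Cyp2b23 fell, Cyp2s1 rose and Cyp2b10, Cyp2b19, Cyp2a5 and Cyp2f2 did not pass. On chromosome 5 Cyp3a57 was the 1 tested of 6 Cyp3a genes, and on chromosome 9 Cyp1a1 fell while Cyp11a1 did not pass.

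Of the 6 genes that fell with IMQ and rose with both antibodies, IMQ PBS replicate 4 had the highest level of its group for 5: Cyp1a1 (6.37 CPM), Cyp2b23 (0.117 CPM), Cyp2j8 (1.29 CPM), Cyp2j12 (1.87 CPM) and Cyp3a57 (1.87 CPM). Cyp4f37 was at 0 CPM there, the lowest of its group, and only a few counts lay behind the Cyp2b23 values. The same library had the highest sebaceous gland marker sum of that group, 574 CPM. A link between that sum and the P450 levels was not tested.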
